A study of Homo sapiens with 4 samples.

Results

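Cultures labelled HT-29, an established line of epithelial morphology from a human colorectal adenocarcinoma, served as the controls of 2 Illumina HumanHT-12 V4 BeadChips, on which total RNA is measured with oligonucleotide probes bound to beads. The control of chip 1 was set against the control of chip 2, gene by gene, to describe the lineage and the state of both cultures. All probes held by both tables and above background on at least 1 of the 2 control arrays were taken, which gave 18537 of 47227 probes and, with 1 probe per gene, 10905 of 20044 genes. Background was set by the deposited detection p-value, which had to be under 0.01. There was 1 array on each side, so no difference below has a replicate check or a test, and chip and culture cannot be told apart.

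Chip 1 carried the control and cells given 20 µM cyclopamine, a plant steroid that inhibits Smoothened of the Hedgehog pathway. Chip 2 carried the DMSO control and cells given 20 µM GANT61, an inhibitor of the GLI transcription factors, and all 4 cultures were taken at 48 h. The chip 1 control has conflicting labels, since its source name gives tomatidine, a relative of cyclopamine, and its title and treatment give DMSO, the solvent. It is called the chip 1 control, and neither reading is assumed. The treated array of each chip is given beside its control throughout, since it carries the same HT-29 label and stood on the same chip.

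Epithelial cells hold together through cadherins, claudins and desmosomes, and intestinal epithelium adds a programme of its own under CDX2, HNF4 and FOXA factors. Cells of mesenchymal character use vimentin filaments, N-cadherin and secreted matrix instead. Epithelial and mesenchymal genes are therefore the usual first check of what a carcinoma culture is.

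The arrays themselves differed in background and in the number of probes above it. Median deposited intensity was 90.2 and 91.1 on the control and treated arrays of chip 1 and 72.8 and 74.9 on those of chip 2, and 29.4%, 28.5%, 36.1% and 33.8% of probes were above background, in the same order. Across all 47227 probes, normalised levels correlated with r of 0.982 and 0.983 between arrays of one chip and with r from 0.873 to 0.877 between arrays of different chips. Probes just inside the threshold (detection p of 0.00909, 186 probes) had a median intensity of 111 on their brighter control array, and those just outside it (detection p of 0.0104, 88 probes) also had 111. The lowest normalised log2 level of any probe above background was 5.84 in the chip 1 control and 5.38 in the chip 2 control, and a level below background is replaced by this value wherever a fold is written as at least N-fold. In extracts of whole cultures, fewer cells of a type and less RNA per cell cannot be told apart.

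The HT-29 label was checked first against markers of epithelium. On chip 2 the markers were bright, and on chip 1 they were at the level of background. Levels are normalised log2 intensities, with the control before the treated array of each chip. EPCAM (ILMN_2160210), an adhesion protein of the epithelial surface, was at 4.84 and 4.81 on chip 1 and 12.99 and 13.02 on chip 2. CDH1 (ILMN_1770940), the epithelial cadherin, was at 4.50 and 4.53 on chip 1 and 11.84 and 11.78 on chip 2. KRT19 (ILMN_1730777), a keratin of simple epithelia, was at 5.08 and 5.73 on chip 1 and 12.67 and 12.83 on chip 2. These 3 genes were below background on both arrays of chip 1 and high on both arrays of chip 2, without overlap. LGALS4 (ILMN_1694034), a lectin of the intestinal lining, showed the same order with 4.52 and 4.62 on chip 1 and 12.47 and 12.24 on chip 2. The 3 probes of EPCAM differed between the controls by -8.15 to -5.63. With the brightest probe, EPCAM was at least 143-fold lower on chip 1, KRT19 at least 114-fold lower, LGALS4 at least 99.5-fold lower and CDH1 at least 64.1-fold lower.

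The mesenchymal markers VIM and CDH2 stood the other way, although the wider list given below was mixed. VIM (ILMN_1782538), the vimentin gene, was at 11.60 and 11.66 on chip 1 and 6.22 and 6.32 on chip 2. CDH2 (ILMN_1779228), which encodes N-cadherin, was at 9.16 and 9.16 on chip 1 and 4.57 and 4.54 on chip 2, the latter pair below background. VIM was 41.5-fold higher in the chip 1 control and CDH2 at least 13.8-fold higher. For these markers, the epithelial label matched chip 2, whereas on chip 1 EPCAM, CDH1, KRT19 and LGALS4 were not above background on either array. Other epithelial genes, KRT8, KRT18, DSP and DSG2 among them, were above background on both chips, as given below. The chip 1 cultures are called by their chip, and no other cell type name is given to them.

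Promoter sequences of the markers are shown for the 3 of the 6 that matched the RefSeq table, GRCh38.p14, as the 250 bases before the annotated start, 5′ to 3′ on the strand of the gene. Capitals mark the E-box CAGGTG, searched on both strands, the letters that repressors of the SNAIL and ZEB families are known to bind in the CDH1 promoter. LGALS4 lies at chr19:38812946-38813195, minus strand, VIM at chr10:17227991-17228240, plus strand, and CDH2 at chr18:28177131-28177380, minus strand.
LGALS4: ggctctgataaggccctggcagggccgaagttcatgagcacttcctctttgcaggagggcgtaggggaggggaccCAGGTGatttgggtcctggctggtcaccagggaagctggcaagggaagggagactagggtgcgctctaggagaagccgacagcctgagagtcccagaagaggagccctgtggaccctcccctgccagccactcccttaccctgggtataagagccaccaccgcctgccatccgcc
VIM: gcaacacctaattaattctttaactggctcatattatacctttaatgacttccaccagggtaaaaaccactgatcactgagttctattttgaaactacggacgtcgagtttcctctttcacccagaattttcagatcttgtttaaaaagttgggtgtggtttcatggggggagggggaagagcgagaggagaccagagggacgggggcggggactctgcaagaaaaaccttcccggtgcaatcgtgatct
CDH2: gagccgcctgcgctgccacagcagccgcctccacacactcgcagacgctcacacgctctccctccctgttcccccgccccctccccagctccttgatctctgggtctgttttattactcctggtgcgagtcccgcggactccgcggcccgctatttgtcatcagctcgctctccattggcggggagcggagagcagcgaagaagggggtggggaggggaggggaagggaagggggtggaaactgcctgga
LGALS4 held 1 E-box, from 175 to 170 bases before the start, and VIM and CDH2 held none in this window. The letters were found in 17.5% of all 27305 promoters of the table and in 11 of 27 promoters (40.7%) of the epithelial adhesion genes described below. Such a match describes letters and is not a measured binding site.

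**Figure D1:**
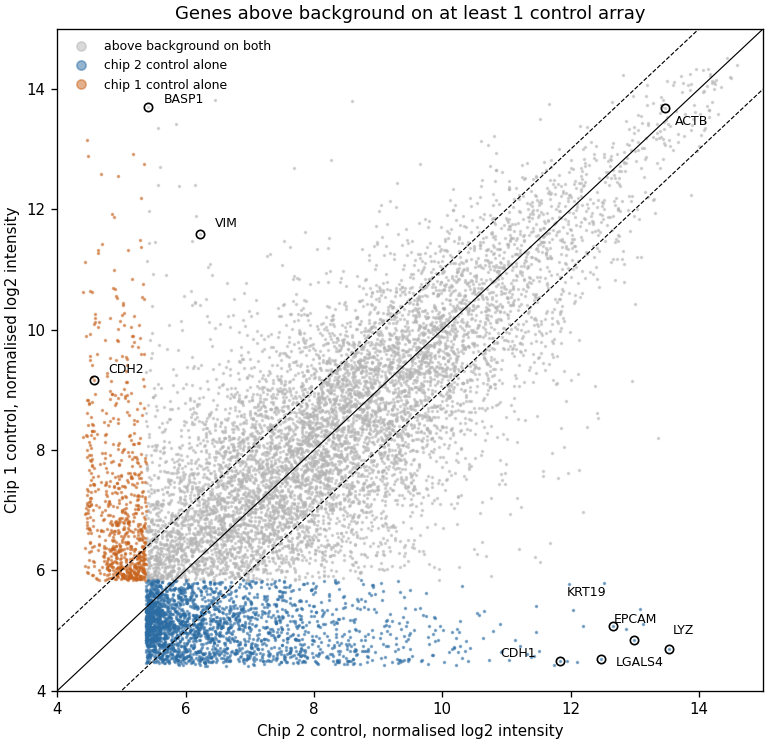
Normalised log2 intensity of 10905 genes in the chip 2 control (x axis) and the chip 1 control (y axis), 1 point per gene, grey where both arrays were above background and coloured where 1 was, with the line of equality and dashed lines at 2-fold. The epithelial markers and LYZ lie along the bottom right, BASP1, VIM and CDH2 lie at the upper left, and ACTB lies near the line.

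Each gene was read through its brightest probe over the 4 arrays. Of the 10905 genes 7827 (71.8%) were above background on both controls, 771 (7.07%) on chip 1 alone and 2307 (21.2%) on chip 2 alone. At least 2-fold higher in the chip 1 control were 2079 genes (19.1%), and 2546 (23.3%) were at least 2-fold lower. Among the 7827 genes seen on both controls, 1469 (18.8%) were higher and 1295 (16.5%) lower by that measure. The median log2 difference, chip 1 minus chip 2, was -0.11, with quartiles of -0.93 and 0.74, and the median without its sign was 0.83. These shares are the background against which each gene group is read. A gene above background on 1 control alone entered through that array, which favours a difference towards that array. Counts over the tested members therefore describe the arrays and support nothing further.

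How far apart probes of the same gene lay gives a scale for differences between probes. It holds no spread between replicate arrays or cultures, of which there were none. The SD of the difference, per probe and within a gene, was 0.57 on the log2 scale over 1835 genes. Of 548 genes called higher that had several probes, all their probes were at least 2-fold higher in 364 (66.4%), and in 16 (2.92%) a probe was at least 2-fold lower. Of 723 called lower, all probes agreed at 2-fold in 382 (52.8%) and 26 (3.6%) had a probe at least 2-fold higher.

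Adhesion and junction genes of epithelium were lower on chip 1 or level between the chips. Of 39 with a probe, 33 exceeded background in the chip 2 control and 32 with GANT61, against 14 in the chip 1 control and 14 with cyclopamine. Among the 33 tested, 23 were at least 2-fold lower on chip 1 and 0 higher, and the median was -1.82, against -0.11 over all genes. Over the 14 members above background on both controls the median was -0.26, and the other 19 entered through chip 2 alone. Tight junction genes made up many of them. CLDN3, a claudin, was at 4.48 and 4.52 on chip 1 and 9.34 and 9.65 on chip 2, CLDN1, another claudin, at 4.50 and 4.59 on chip 1 and 8.37 and 8.53 on chip 2, and CGN, the junction scaffold cingulin, at 4.59 and 4.58 on chip 1 and 9.85 and 9.78 on chip 2. All 3 were below background on both arrays of chip 1. LAD1, a basement membrane anchor protein, was at least 39.2-fold lower, ITGB4, the hemidesmosome integrin, at least 14.5-fold lower, and CLDN2, a pore-forming claudin, at least 16.3-fold lower.

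Some junction genes did not follow. DSP, the desmosome plaque protein desmoplakin, was at 8.72 and 8.74 on chip 1 and 8.33 and 8.32 on chip 2, and DSG2, a desmosomal cadherin, at 10.20 and 10.25 on chip 1 and 10.11 and 10.20 on chip 2. For CTNNB1, the gene of beta-catenin, the level in the chip 2 control was 7.74. These genes were above background on all 4 arrays and differed between the controls by 0.39, 0.10 and 0.26 on the log2 scale, within the spread between probes. CXADR, a virus receptor of cell junctions, differed by -0.08, and CTNNA1, alpha-catenin, by -0.19. TJP1, which encodes the junction scaffold ZO-1, and CLDN7 were present on both chips but 5.23-fold lower and 2.3-fold lower on chip 1. CLDN4 had a difference of -1.01, and its sign turned when the level below background was replaced by the lowest detected level. Members at or below background on both controls were CDH3, OCLN, PKP1, NECTIN4, CDHR1 and CDHR2.

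Transcription and splicing factors that keep the epithelial state, and surface genes that go with them, followed the adhesion genes. Of 21 with a probe, 18 exceeded background in the chip 2 control and 8 in the chip 1 control. Of the 18 tested, 15 were at least 2-fold lower on chip 1, 1 was higher and 2 lay between, with a median of -2.99, or -1.99 over members above background on both controls. SPINT2 and SPINT1, inhibitors of membrane-bound serine proteases, were at least 151-fold lower and at least 12.4-fold lower. EHF, an epithelial ETS factor, was at 4.54 and 4.47 on chip 1 and 10.32 and 10.08 on chip 2, RAB25, an epithelial vesicle GTPase, at 4.56 and 4.57 on chip 1 and 11.39 and 11.22 on chip 2, and ESRP1, an epithelial splicing regulator, at 5.42 and 5.42 on chip 1 and 7.65 and 8.03 on chip 2. Each fell short of background on both arrays of chip 1 and was above it on both arrays of chip 2. OVOL2 and GRHL2, transcription factors that maintain epithelium, were at least 4.02-fold lower and at least 2.06-fold lower. ELF3, another epithelial ETS factor, was above background on all 4 arrays and 6.65-fold lower on chip 1. MUC1, a membrane mucin, went against its list at 9.10 and 9.87 on chip 1 and 5.57 and 5.21 on chip 2 and was 11.5-fold higher in the chip 1 control.

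Keratins, the intermediate filaments of epithelium, differed one by one. Of 15 with a probe, 10 could be tested, 4 higher and 4 lower on chip 1, with a median of -0.14 whose sign turned under 4 alternative settings. Besides KRT19, KRT20, a keratin of the differentiated gut, was at 4.95 and 4.79 on chip 1 and 9.85 and 10.70 on chip 2, although its 2 probes differed (-4.90 and -0.71). KRT8 and KRT18, which pair in simple epithelia, remained above background on every array. KRT8 was at 10.43 and 10.59 on chip 1 and 13.01 and 12.83 on chip 2 and was 5.98-fold lower in the chip 1 control, while KRT18 differed by -0.08. Higher on chip 1 were KRT16, a keratin of activated squamous epithelium, at 10.09 and 10.24 on chip 1 and 4.57 and 4.54 on chip 2, KRT7, a keratin of ducts and placenta, at 7.64 and 9.02 on chip 1 and 4.77 and 4.70 on chip 2, KRT10 with a difference of 2.02 and KRT80, 3.15-fold higher. KRT13, a keratin of squamous linings, was at least 3.78-fold lower. KRT16 and KRT7 were below background on both arrays of chip 2. KRT1, KRT4, KRT5, KRT14 and KRT23 were below background on both controls.

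Intestinal transcription factors were present on chip 2 and mostly not on chip 1. Of 19 with a probe, 15 exceeded background in the chip 2 control and 15 with GANT61, against 6 in the chip 1 control and 4 with cyclopamine. Of the 15 tested, 13 were at least 2-fold lower on chip 1 and 2 higher, and the median was -3.39, or -1.76 over members above background on both controls. The list and its counts include TFF3, a secreted goblet cell peptide and not a transcription factor, which was among the 13 lower genes. CDX2, the master factor of the hindgut, was at 4.47 and 4.52 on chip 1 and 7.86 and 6.43 on chip 2. HNF4G, a nuclear receptor of enterocytes, was at 4.49 and 4.69 on chip 1 and 8.29 and 7.30 on chip 2, and FOXA2, a pioneer factor of endoderm, at 4.70 and 4.88 on chip 1 and 8.85 and 8.27 on chip 2. These 3 were below background on both arrays of chip 1, although the GANT61 array was also lower than its control in each. SOX9, a factor of crypt progenitors, was at least 20.4-fold lower and FOXA1, a relative of FOXA2, 28.7-fold lower. PPARG, the fatty acid receptor, was above background on all 4 arrays and 2.4-fold lower on chip 1. KLF4 and VDR, the vitamin D receptor, went the other way at 2.05-fold higher and 2.38-fold higher, but KLF4 reached 7.51 with GANT61, above both arrays of chip 1. CDX1, GATA4, GATA5 and GATA6 were below background on both controls.

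Genes of the absorptive cell were mostly lower on chip 1 where the arrays could see them. Of 42 with a probe, 23 exceeded background in the chip 2 control and 6 in the chip 1 control, and 18 were on neither. Of the 24 tested, 17 were at least 2-fold lower on chip 1 and 1 higher, with a median of -1.79. However, 18 of the 24 entered through chip 2 alone, so these counts lean towards chip 2 by selection. VIL1, which encodes villin of the brush border, was at 4.45 and 4.44 on chip 1 and 8.72 and 7.64 on chip 2. CA2, a carbonic anhydrase, was at 4.61 and 4.62 on chip 1 and 7.48 and 8.29 on chip 2, and HPGD, which breaks down prostaglandins, at 4.63 and 4.57 on chip 1 and 8.08 and 7.57 on chip 2. None of the 3 was above background on an array of chip 1. TSPAN8, a tetraspanin, was above background on all 4 arrays at 8.21 and 7.46 on chip 1 and 13.37 and 12.57 on chip 2, which made it 35.8-fold lower in the chip 1 control, and MUC13, a membrane mucin, was 6.83-fold lower. SELENBP1 differed by 0.12, and the 3 probes of SLC44A4 ranged from -4.47 to -0.74. The exception was ALPI, intestinal alkaline phosphatase, at 11.32 and 11.32 on chip 1 and 5.10 and 5.25 on chip 2, whose symbol is uncertain because the placental gene ALPP is close to it in sequence. ALPP itself was at 12.33 and 12.19 on chip 1 and 11.04 and 10.73 on chip 2. CDH17, SI, FABP2, CEACAM5 and SLC26A3 were among the 18 below background on both controls, so their probes gave no signal in the chip 2 control either. The reason was not tested.

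The secretory lineage, which makes mucus and antimicrobial proteins, had fewer visible members. Of 32 with a probe, 12 exceeded background in the chip 2 control, 9 with GANT61, 3 in the chip 1 control and 2 with cyclopamine, and 18 were on neither control. Among 14 tested, 10 were at least 2-fold lower on chip 1 and 1 higher, with a median of -2.34. However, 11 of the 14 entered through chip 2 alone and 2 through chip 1 alone, so these counts lean towards chip 2 by selection. LYZ, the lysozyme gene, was at 4.70 and 4.90 on chip 1 and 13.53 and 12.96 on chip 2 and was at least 208-fold lower, the widest gap in this direction with the brightest probe of each gene. Its other probe differed by -3.32, and the mean of its probes by -6.08. SPINK1, a trypsin inhibitor, was at 4.62 and 4.55 on chip 1 and 11.31 and 10.79 on chip 2, and AGR2, a disulfide isomerase needed for mucin folding, at 4.65 and 4.60 on chip 1 and 10.93 and 10.74 on chip 2. These genes were below background on chip 1 and bright on both arrays of chip 2. TFF3, a goblet cell trefoil peptide, was at least 7.17-fold lower, and SPDEF, a factor of goblet cells, at least 3.38-fold lower. SPINK4, a goblet cell peptide, was the exception at 8.55 and 9.41 on chip 1 and 4.52 and 4.48 on chip 2. MUC2, the main gut mucin, was near background on all arrays, and ATOH1, CHGA, CLCA1 and OLFM4 were below it on both controls.

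Targets of WNT signalling in the crypt, which stays active in most colorectal tumours, were mostly lower on chip 1. Of 23 with a probe, 16 exceeded background in the chip 2 control and 10 in the chip 1 control. Among 18 tested, 12 were lower by 2-fold or more and 3 higher, and the median was -2.14. Of the 18, 8 entered through chip 2 alone and 2 through chip 1 alone. AXIN2, a feedback inhibitor of the pathway, was at 5.24 and 4.96 on chip 1 and 9.75 and 9.90 on chip 2. RNF43, a ligase that removes WNT receptors, was at 4.52 and 4.64 on chip 1 and 8.39 and 7.62 on chip 2, and its relative ZNRF3 at 5.01 and 5.79 on chip 1 and 8.91 and 8.46 on chip 2. The 3 feedback genes were below background on both arrays of chip 1 and above it on both arrays of chip 2. ASCL2, the stem cell factor of the crypt, was at least 7.98-fold lower and CCND1, cyclin D1, 4.78-fold lower. MYC stood against the list at 12.16 and 12.31 on chip 1 and 10.13 and 10.77 on chip 2, 4.09-fold higher on chip 1, as did DKK1, a secreted WNT antagonist, at 2.44-fold higher, and NOTUM, an enzyme that inactivates WNT ligands, which was at least 2.42-fold higher. LGR5, the crypt stem cell receptor, was near background on all 4 arrays at 5.22 and 4.94 on chip 1 and 5.61 and 5.19 on chip 2.

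**Figure D2:**
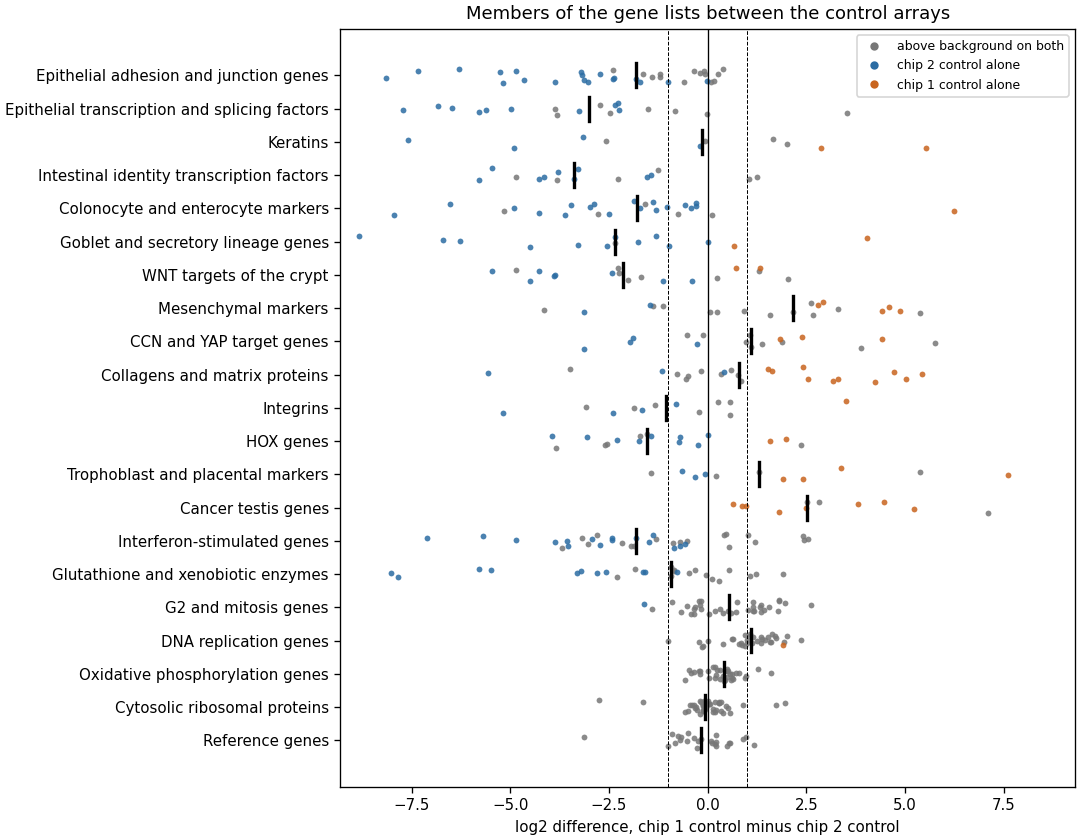
Log2 difference between the controls, chip 1 minus chip 2, for the tested members of 21 gene lists, 1 point per gene, coloured by the control on which the gene was above background, with the list median as a black bar and dashed lines at 2-fold. Epithelial and intestinal lists have medians to the left, except keratins, which spread to both sides. Medians of the mesenchymal, matrix and cancer testis lists lie to the right, with mesenchymal and matrix members on both sides. Ribosomal proteins and reference genes lie near 0.

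Mesenchymal markers gave the opposite picture, with gaps. Of 38 with a probe, 17 exceeded background in the chip 1 control, 18 with cyclopamine, 14 in the chip 2 control and 13 with GANT61, and 19 were on neither control. Among the 19 tested, 11 were at least 2-fold higher on chip 1 and 5 lower, with a median of 2.16. The 11 higher genes were VIM, CALD1, CDH2, AXL, CAVIN1, SNAI2, TWIST2, CAV1, CAV2, ENG and TPM2. AXL, a receptor tyrosine kinase, was at 9.51 and 9.62 on chip 1 and 5.09 and 5.11 on chip 2. SNAI2, a repressor of CDH1 in other epithelial cells, was at 8.10 and 7.73 on chip 1 and 5.18 and 5.05 on chip 2, and TWIST2, a helix-loop-helix factor, at 7.47 and 7.82 on chip 1 and 4.68 and 4.69 on chip 2. All 3 were below background on both arrays of chip 2. CALD1, the actin-binding caldesmon, was at least 21.5-fold higher, although its 3 probes ranged from 1.18 to 4.86. CAV1 and CAV2 each also had a probe with a smaller difference, 0.43 and 0.36.

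Not every mesenchymal gene followed. ZEB1, ZEB2, SNAI1 and TWIST1, the other repressors of this class, were below background on both controls, and so were FN1, SPARC, THY1, PDGFRB and MMP2. TGFBI, a matrix protein, was at 6.47 and 7.03 on chip 1 and 10.62 and 10.23 on chip 2, 17.7-fold lower on chip 1, and NT5E, the surface enzyme CD73, was at least 8.35-fold lower. S100A4 differed by -1.38 and TPM1, a tropomyosin, by -1.13 with 4 probes from -1.21 to 0.43, while ACTA2, smooth muscle actin, differed by 0.06. Without a detection filter the list's median was 0.056, with 19 of its 38 genes then at background on both controls.

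A list of genes reported as targets of the YAP and TAZ coactivators, with components of that pathway, was mostly higher on chip 1. These coactivators respond to cell shape and density. Of 20 listed genes with a probe, 16 could be tested, 9 higher by 2-fold or more and 3 lower, and their median was 1.09. The 16 include the components YAP1, WWTR1 and TEAD4, and WWTR1 and TEAD4 are among the 9. CCN1, a secreted matrix protein, was at 11.14 and 11.29 on chip 1 and 5.40 and 6.04 on chip 2, 53.5-fold higher in the chip 1 control. GADD45B, a stress sensor, was at 9.33 and 9.32 on chip 1 and 5.45 and 6.13 on chip 2. CCN2, connective tissue growth factor, was at 8.57 and 8.85 on chip 1 and 7.18 and 5.87 on chip 2, a smaller gap of 2.61-fold higher. Among the components themselves, YAP1 differed by -0.11, whereas WWTR1, which encodes TAZ, was above background on chip 1 alone at 6.39 and 5.97 on chip 1 and 4.55 and 4.50 on chip 2, and TEAD4, their DNA-binding partner, was 3.71-fold higher. NT5E, ARHGEF17 and AJUBA were lower on chip 1, but AJUBA reached 6.80 with cyclopamine.

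The promoter of CCN2 is shown because TEAD factors are known to act through it, at chr6:131951373-131951622, minus strand, 250 bases before the start from RefSeq, GRCh38.p14, with the TEAD letters GGAATG, searched on both strands, in capitals.
CCN2: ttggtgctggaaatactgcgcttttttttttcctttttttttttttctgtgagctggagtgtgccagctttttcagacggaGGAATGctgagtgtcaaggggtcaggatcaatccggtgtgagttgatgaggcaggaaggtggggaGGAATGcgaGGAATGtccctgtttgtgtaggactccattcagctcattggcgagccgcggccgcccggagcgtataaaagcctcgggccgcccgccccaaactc
It held 3 matches, the outermost from 169 to 164 and the innermost from 95 to 90 bases before the start. The letters were in 11.9% of all promoters and in 5 of 13 (38.5%) of the list's promoters that matched.

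Matrix genes went both ways. Of 39 with a probe, 19 exceeded background in the chip 1 control and 12 in the chip 2 control, 10 of them on chip 1 alone and 3 on chip 2 alone. Among 22 tested, 10 were at least 2-fold higher on chip 1 and 3 lower, with a median of 0.80 that was -0.16 over genes above background on both. Chains of basement membrane collagen IV were among the higher genes. COL4A1 was at 10.05 and 10.24 on chip 1 and 4.63 and 4.81 on chip 2, COL4A2, its partner chain, at 7.79 and 8.22 on chip 1 and 5.24 and 5.61 on chip 2, and COL4A5 at 7.82 and 7.59 on chip 1 and 4.53 and 4.45 on chip 2. These chains were below background in the chip 2 control. FBLN1, a fibulin, was at least 28.7-fold higher, COL7A1, the anchoring fibril collagen, at least 17.8-fold higher, and COL5A1, a fibrillar collagen, at least 15.2-fold higher. The fibrillar genes COL1A2 and COL3A1 were below background on both controls, and COL1A1 was at 6.96 and 6.89 on chip 1 and 5.33 and 5.29 on chip 2. BGN, a small proteoglycan, was at least 18.4-fold lower and AGRN, agrin, 11.1-fold lower on chip 1, although another AGRN probe differed by -0.92. Laminin genes LAMB1, LAMB2, LAMB3, LAMC1 and LAMA5 differed by less than 2-fold, while LAMA1 was at least 4.91-fold higher.

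Integrins, the receptors for this matrix, were lower on chip 1 more often than higher. Of 21 with a probe, 12 could be tested, 6 lower and 1 higher, with a median of -1.07 that was -0.21 over members above background on both controls. ITGA2, a collagen receptor chain, was at 6.01 and 7.57 on chip 1 and 9.09 and 8.59 on chip 2, and ITGA6, the laminin receptor chain that pairs with ITGB4, at 4.72 and 4.64 on chip 1 and 7.12 and 7.25 on chip 2. ITGA5, the chain of the fibronectin receptor, was the exception at 8.03 and 8.68 on chip 1 and 4.52 and 4.50 on chip 2, below background on both arrays of chip 2. ITGB1, the common beta chain, differed by 0.26.

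HOX genes record position along the body axis, and their pattern in cultured cells tends to be kept. Of 29 listed genes with a probe, 17 exceeded background on a control, 15 on chip 2 and 8 on chip 1. Of these 17, 10 were at least 2-fold lower on chip 1 and 3 higher, with a median of -1.54. HOXB5 was at 8.04 and 7.71 on chip 1 and 11.90 and 11.23 on chip 2, HOXB8 at 6.91 and 5.09 on chip 1 and 9.50 and 8.74 on chip 2, and HOXC6 at 7.59 and 7.82 on chip 1 and 10.14 and 9.88 on chip 2. Each was above background on both controls and lower on chip 1. HOXB3 was at least 7.78-fold lower and HOXC4 at least 3.29-fold lower, with chip 1 below background. Higher on chip 1 were HOXC13 at 8.51 and 8.22 on chip 1 and 6.15 and 6.30 on chip 2, HOXD11 at 7.02 and 6.13 on chip 1 and 5.04 and 5.09 on chip 2 and HOXC10 at 6.15 and 5.86 on chip 1 and 4.56 and 4.52 on chip 2. HOXD11 and HOXC10 were below background on both arrays of chip 2. HOXB7 stayed above background on all 4 arrays and was 2.92-fold lower on chip 1.

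**Figure D3:**
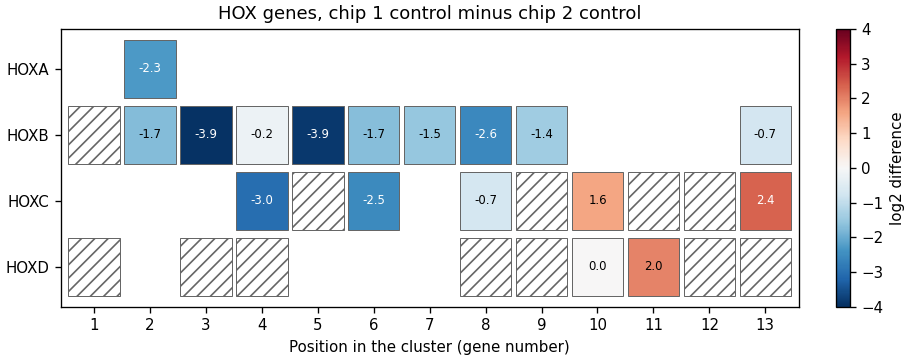
Log2 difference between the controls, chip 1 minus chip 2, for HOX genes by cluster (rows) and gene number (columns). Colour and number give the difference, hatched cells were below background on both controls, and blank positions are not shown. The coloured HOXB genes are blue, lower on chip 1, and HOXC10, HOXC13 and HOXD11 are red.

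Markers of other cell types were looked at as whole lists. Of 30 neuronal and neural markers, 6 were above background in each array of chip 1, 4 in the chip 2 control and 3 with GANT61, with 22 on neither control. Defining genes such as SYP, STMN2, DCX and GFAP were below background on both. L1CAM, a neural adhesion molecule, was at 7.83 and 7.93 on chip 1 and 4.99 and 4.99 on chip 2, and NES, the filament protein nestin, at 7.59 and 7.51 on chip 1 and 4.99 and 4.78 on chip 2. Both were above background on chip 1 alone. For leukocytes, 3 of 21 markers exceeded background in the chip 1 control and 7 in the chip 2 control, with PTPRC, CD3D, SPI1 and TYROBP on neither, and LYN, a kinase of the SRC family, at 8.91 and 8.88 on chip 1 and 5.52 and 6.07 on chip 2. Endothelial PECAM1, CDH5 and VWF were on neither control, and 2 of 13 markers of that type were above background on each array.

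Further lineages gave little signal. Of 11 melanocyte and neural crest markers 2 were above background in each control, and TYR, MLANA and SOX10 were on neither. Muscle markers above background numbered 3 of 12 in the chip 1 control and 2 in the chip 2 control, without DES or MYOD1. Hepatocyte markers numbered 1 of 15 and 4 of 15, led by SERPINA1, antitrypsin, at 4.67 and 4.52 on chip 1 and 11.51 and 11.89 on chip 2. CPS1, a urea cycle enzyme of liver and gut that was not on that list, was at 11.92 and 11.44 on chip 1 and 4.86 and 4.83 on chip 2. Of 14 kidney, lung and thyroid markers 0 exceeded background in the chip 1 control and 2 in the chip 2 control, and of 20 squamous and urothelial markers 3 and 5 were. Among 12 markers of pluripotent and germ cells only SALL4 was above background, on chip 2, and POU5F1, NANOG and LIN28A were on neither control. The part of these lineages in the differences was not tested.

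**Figure D4:**
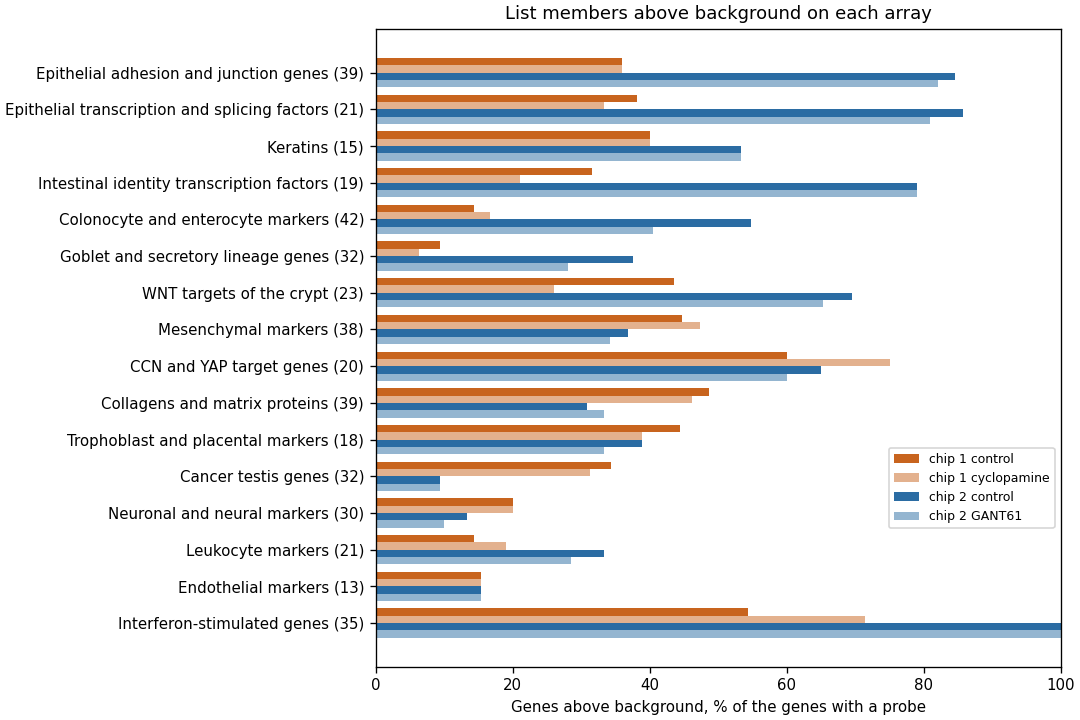
Share of the genes with a probe that were above background (detection p under 0.01) on each array, by list, with the number of genes with a probe in brackets and 1 bar per array. Epithelial and intestinal lists have longer blue bars (chip 2) and cancer testis genes longer orange bars (chip 1), while both arrays of a chip are close to each other in most lists.

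Placental genes were about as many above background on each chip, with single bright members on chip 1. Of 18 with a probe, 8 exceeded background in the chip 1 control and 7 in the chip 2 control. Of 11 tested, 6 were at least 2-fold higher on chip 1 and 1 lower, with a median of 1.29 that was 0.75 over members above background on both controls. CGA, the common alpha chain of the gonadotropins, was at 12.55 and 12.48 on chip 1 and 4.94 and 4.99 on chip 2. TFAP2A, the transcription factor AP-2 alpha, was at 11.48 and 11.30 on chip 1 and 6.10 and 7.32 on chip 2, and its relative TFAP2C at 7.62 and 7.34 on chip 1 and 5.20 and 5.37 on chip 2. CGA and TFAP2C were below background on chip 2, and CGA was at least 145-fold higher. GATA2 was lower on chip 1 (-1.45), HLA-G differed by 0.21, and CGB5, PSG1 and GCM1 were below background on both controls. PSG4, a pregnancy-specific glycoprotein, was at least 6.73-fold higher, but its 3 probes ranged from 1.06 to 3.38 and the family is close in sequence.

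Cancer testis genes, which are normally limited to germ cells and are switched on in some tumours, were seen mostly on chip 1. Of 32 with a probe, the chip 1 control showed 11 above background, the cyclopamine array 10 and each array of chip 2 showed 3. Of 11 tested, 8 were at least 2-fold higher on chip 1 and 0 lower, with a median of 2.51. However, 8 of the 11 entered through chip 1 alone and 3 were above background on both controls, so these counts lean towards chip 1 by selection. TEX19, a germline gene, was at 12.70 and 12.53 on chip 1 and 5.61 and 5.53 on chip 2. MAGEB2 was at 9.24 and 8.84 on chip 1 and 4.77 and 4.93 on chip 2, and PAGE1, an X-linked member of the class, at 8.25 and 8.20 on chip 1 and 4.44 and 4.58 on chip 2. These 3 were bright on both arrays of chip 1 and at or near background on chip 2. GAGE7 was at least 29.8-fold higher, and GAGE12C, GAGE12F, GAGE12G, GAGE12H, GAGE12J and GAGE4 were among the 15 genes highest on chip 1. The GAGE copies are nearly identical, so their probes count the family rather than single genes, and the same doubt holds for MAGEA3 (5.71-fold higher) and MAGEA6 (7.08-fold higher). MAGEA1, MAGEA4, MAGEC1, CTAG1B and SSX2 were below background on both controls.

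Genes with common deletion or null alleles can mark one culture against another, because a line that lacks the gene cannot express it. GSTM1, a glutathione transferase, was at 10.41 and 9.80 on chip 1 and 6.11 and 6.32 on chip 2, 19.7-fold higher in the chip 1 control, and GSTM2, which is close to it in sequence, was at least 4.03-fold higher. GSTT2 was at 7.23 and 7.12 on chip 1 and 5.24 and 5.27 on chip 2, below background on both arrays of chip 2. GSTT1 was above background on all 4 arrays and differed by -0.84. ERAP2, a peptidase, was at 11.50 and 11.96 on chip 1 and 12.71 and 12.59 on chip 2, with probes at -1.21 and -3.70, and APOBEC3B, a cytidine deaminase, differed by 1.26. Transcript levels do not show a genotype, and UGT2B17 and UGT2B28 were below background on both controls.

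The 15 genes furthest apart in each direction, ranked by fold with background levels replaced, belonged to these groups and a few more. Highest on chip 1 was BASP1, a membrane protein of growing axons, at 13.71 and 13.67 on chip 1 and 5.42 and 5.34 on chip 2, 312-fold higher. H19, an imprinted noncoding RNA, was at 13.15 and 13.35 on chip 1 and 4.46 and 4.54 on chip 2, and SLC2A3, a glucose transporter, at 12.89 and 13.73 on chip 1 and 4.48 and 4.50 on chip 2. Both were below background on chip 2. DUSP1, a MAPK phosphatase, was 163-fold higher, but the chip 2 array with GANT61 stood at 8.24 against 6.46 in its control. ID3, an inhibitor of helix-loop-helix factors, was at least 148-fold higher, and RAB31, a vesicle GTPase, 93.2-fold higher. On the other side were the glutathione peroxidase GPX2 (at least 157-fold lower) and ALDH1A1, a retinal dehydrogenase (at least 130.0-fold lower). GCNT3, a mucin glycosyltransferase, was at least 103-fold lower, VSIG2 at least 76.8-fold lower, CTSH, a cathepsin, at least 73.3-fold lower, LCN2, an iron-binding lipocalin, at least 70.9-fold lower, FOXQ1, a forkhead factor, at least 68.8-fold lower, and TM4SF4, a tetraspan membrane protein, at least 59.8-fold lower. In all, 176 genes (1.61%) were at least 10-fold higher on chip 1 and 154 (1.41%) at least 10-fold lower by this measure.

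**Figure D5:**
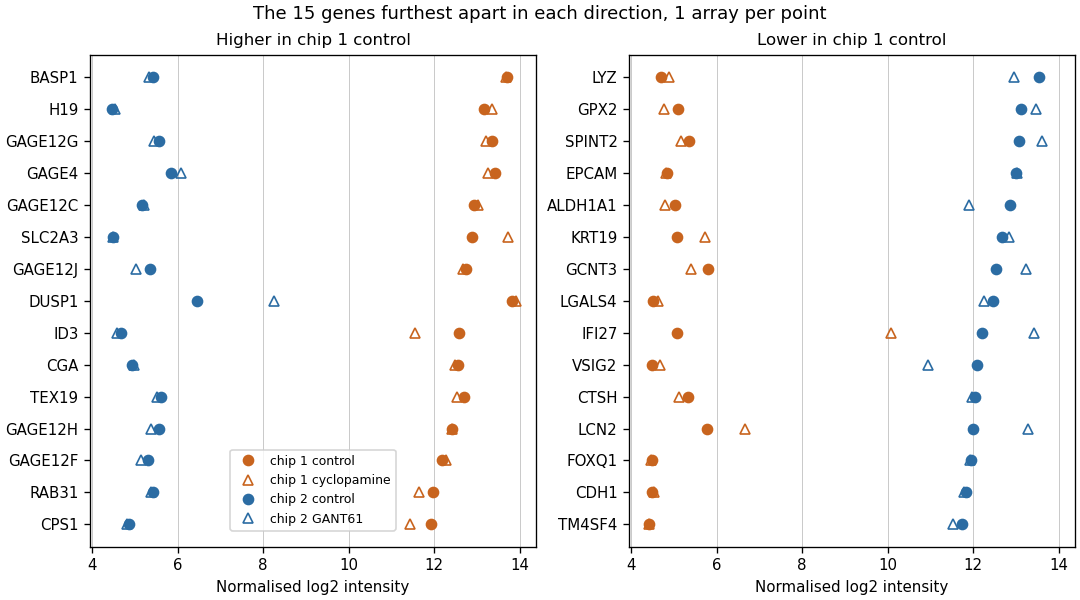
Normalised log2 intensity on each of the 4 arrays for the 15 genes furthest apart in each direction, filled circles for controls and open triangles for treated arrays, orange for chip 1 and blue for chip 2. Arrays of one chip lie together for most genes. The exceptions that stand out are IFI27 and DUSP1, where a treated array lies between the chips.

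State programmes were read next, beginning with interferon-stimulated genes, which are switched on by interferons and restrict viruses. All 35 with a probe exceeded background in the chip 2 control, 35 with GANT61, 25 with cyclopamine and 19 in the chip 1 control. At least 2-fold lower on chip 1 were 21, and 5 were higher, with a median of -1.81 that was -0.69 over the 19 above background on both controls. MX1, an antiviral GTPase, was at 4.66 and 4.84 on chip 1 and 10.36 and 12.71 on chip 2. SAMD9, an antiviral effector, was at 4.46 and 4.77 on chip 1 and 9.31 and 10.56 on chip 2, and OAS2, which senses double-stranded RNA, at 4.48 and 4.66 on chip 1 and 8.36 and 10.95 on chip 2. On chip 1 these 3 stayed below background with cyclopamine also. IFI27 behaved otherwise, at 5.08 and 10.07 on chip 1 and 12.20 and 13.41 on chip 2, so its gap of at least 82.2-fold lower between the controls was narrower between the treated arrays. IRF9 and IRF7, factors of the pathway, were above background on all 4 arrays and 3.66-fold lower and 3.81-fold lower on chip 1. Of the 35, 16 were at least 2-fold lower on both arrays of chip 1 than on both arrays of chip 2, and 2 were higher by that rule. Over all genes tested, 15.8% were lower and 12.2% higher by it. Among the 35, 16 were above background in the chip 2 control alone, which favours a lower level on chip 1.

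The 5 interferon genes higher on chip 1 were IFITM1, IFITM2, IFITM3, ISG20 and BST2. IFITM3, which blocks virus entry, was at 13.14 and 13.31 on chip 1 and 10.60 and 11.71 on chip 2, and IFITM1 at 9.87 and 10.55 on chip 1 and 7.45 and 9.70 on chip 2. The family members are close in sequence, so their probes are not independent. ISG15, a ubiquitin-like protein, was at 10.52 and 12.79 on chip 1 and 11.83 and 13.05 on chip 2, where the cyclopamine array stood above the chip 2 control. OAS1 differed by -0.88, but its 3 probes ranged from -4.06 to -0.88.

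Promoters of IFI27 and IFIT1 are shown because both genes are classical interferon targets, with the letters of the interferon-stimulated response element, GAAA on either side of any 2 bases, on both strands, in capitals. The windows are chr14:94110486-94110735, plus strand, and chr10:89392373-89392622, plus strand, GRCh38.p14 from RefSeq.
IFI27: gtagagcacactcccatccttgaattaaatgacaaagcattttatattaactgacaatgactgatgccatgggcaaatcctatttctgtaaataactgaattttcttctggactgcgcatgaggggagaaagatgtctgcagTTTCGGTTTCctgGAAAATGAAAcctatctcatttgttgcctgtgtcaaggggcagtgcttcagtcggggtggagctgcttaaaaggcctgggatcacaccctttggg
IFIT1: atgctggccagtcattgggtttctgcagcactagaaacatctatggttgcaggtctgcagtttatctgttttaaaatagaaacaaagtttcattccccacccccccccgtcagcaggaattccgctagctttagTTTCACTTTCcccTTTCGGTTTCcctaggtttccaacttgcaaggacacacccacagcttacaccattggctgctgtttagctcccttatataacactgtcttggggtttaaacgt
Each held 2 matches. In IFI27 they lay from 108 to 99 and from 95 to 86 bases before the start, and in IFIT1 from 116 to 107 and from 103 to 94. The letters were in 3.07% of all promoters and in 18 of 29 (62.1%) of the list. IFIT1 was at 6.10 and 7.92 on chip 1 and 9.79 and 11.85 on chip 2, so both chips showed a higher level on the treated array. Its other probe differed between the controls by -0.61.

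Antigen presentation genes did not follow the interferon list. Of 22 with a probe, 16 could be tested, 4 higher and 3 lower on chip 1, with a median of -0.08. HLA-B, a class I heavy chain, was at 9.41 and 9.93 on chip 1 and 6.25 and 8.83 on chip 2, and HLA-C at 7.76 and 7.78 on chip 1 and 4.97 and 5.06 on chip 2. TAP1, the peptide transporter, was at 10.12 and 10.72 on chip 1 and 8.56 and 10.11 on chip 2, and B2M, the light chain, differed by -0.52. HLA-B and TAP1 on the GANT61 array came close to chip 1, while HLA-C stayed below background on chip 2. HLA alleles differ in sequence, and a probe can miss an allele, so a level of HLA-B or HLA-C is uncertain. CD74 and HLA-DMB, class II genes, were at least 1.79-fold lower and at least 3.78-fold lower.

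Enzymes of glutathione and xenobiotic metabolism were lower on chip 1 more often than higher. Of 30 with a probe, 26 exceeded background on each array of chip 2, 15 in the chip 1 control and 16 with cyclopamine. Of 26 tested, 12 were lower by 2-fold or more, 3 were higher and 11 lay between, with a median of -0.93 that was -0.32 over the 15 above background on both controls. GPX2, the glutathione peroxidase of gut epithelium, was at 5.10 and 4.76 on chip 1 and 13.13 and 13.47 on chip 2. ALDH1A1 was at 5.03 and 4.79 on chip 1 and 12.86 and 11.91 on chip 2, and AKR1C3, an aldo-keto reductase, at 4.99 and 4.51 on chip 1 and 10.80 and 12.63 on chip 2. All 3 were below background on both arrays of chip 1. NQO1, a quinone reductase, was 4.92-fold lower and GSTP1, a glutathione transferase, 3.55-fold lower, both above background on every array. HMOX1, heme oxygenase, TXNRD1, a thioredoxin reductase, and GCLM, a subunit of the enzyme that starts glutathione synthesis, went the other way at 3.74-fold higher, 2.35-fold higher and 2.1-fold higher. The AKR1C and UGT1A families are close in sequence and single symbols in them are uncertain.

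The promoter of GPX2 is shown as the widest gap of this list, at chr14:64942746-64942995, minus strand, 250 bases from RefSeq, GRCh38.p14, with the antioxidant response letters, TGAC then any 3 bases then GC, on both strands, in capitals.
GPX2: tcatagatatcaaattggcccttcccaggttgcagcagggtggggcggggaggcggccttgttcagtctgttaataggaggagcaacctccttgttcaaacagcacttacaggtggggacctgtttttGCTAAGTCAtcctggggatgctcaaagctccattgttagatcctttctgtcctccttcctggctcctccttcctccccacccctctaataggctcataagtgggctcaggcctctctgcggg
There was 1 match, from 122 to 114 bases before the start, on the other strand. The letters were in 11% of all promoters and in 5 of 24 (20.8%) of the list.

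Metallothioneins, which bind zinc and copper, split. MT1E was at 6.14 and 6.68 on chip 1 and 11.52 and 10.21 on chip 2, 41.7-fold lower on chip 1, and MT1F was at least 2.34-fold lower. MT1X was at 11.24 and 12.43 on chip 1 and 8.87 and 7.31 on chip 2 and MT2A at 12.72 and 14.19 on chip 1 and 10.75 and 9.94 on chip 2, higher on chip 1. Of 9 with a probe, 5 could be tested, 2 in each direction, and probes of this family can bind each other's transcripts.

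Genes of proliferation were higher on chip 1 more often than lower. Of 34 tested DNA replication genes, 33 were above background on both controls. At least 2-fold higher on chip 1 were 20 and lower 1, and the median was 1.10. MCM5, a subunit of the replicative helicase, was at 10.24 and 10.14 on chip 1 and 8.30 and 7.88 on chip 2. CDT1, which loads that helicase, was at 9.02 and 9.08 on chip 1 and 6.64 and 7.09 on chip 2, and TYMS, thymidylate synthase, at 11.71 and 11.44 on chip 1 and 9.99 and 9.55 on chip 2. Both arrays of chip 1 were above both arrays of chip 2 in each. RRM2, RRM1 and TK1, of nucleotide supply, differed by -0.21, 0.01 and -0.15, and POLE, a polymerase subunit, by -1.01.

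Genes of G2 and mitosis leaned the same way, with 15 of 36 higher on chip 1 by 2-fold or more, 2 lower and a median of 0.55. PBK, a mitotic kinase, was at 8.89 and 7.86 on chip 1 and 6.27 and 5.97 on chip 2, and BIRC5, survivin, at 9.84 and 9.48 on chip 1 and 7.87 and 7.67 on chip 2. Both were higher on both arrays of chip 1. MKI67, the proliferation antigen, was at 5.03 and 4.64 on chip 1 and 6.65 and 5.60 on chip 2, below background on chip 1, and KIF11, a spindle kinesin, was 2.65-fold lower. CCNB1, a mitotic cyclin, differed by -0.33 and TOP2A, a topoisomerase, by 0.38.

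Housekeeping groups set the scale of what did not part the cultures. Of 34 oxidative phosphorylation genes tested, 32 differed by less than 2-fold, with a median of 0.40, and UQCRC1 and NDUFS7 were 3.05-fold higher and 2.43-fold higher. Of 46 cytosolic ribosomal protein genes, 42 differed by less than 2-fold, with a median of -0.08 that turned positive with neqc within each chip, with median scaling and in the deposited series table. RPS23 was at 6.51 and 6.29 on chip 1 and 9.27 and 8.31 on chip 2 and RPL22 at 10.14 and 10.14 on chip 1 and 11.78 and 11.25 on chip 2, lower on chip 1. RPL14 was 3.88-fold higher and RPS7 3.34-fold higher. Among 25 reference genes, 22 differed by less than 2-fold, with a median of -0.17 that also turned positive in the series table and with median scaling. ACTB was at 13.69 and 13.45 on chip 1 and 13.48 and 13.67 on chip 2 and GAPDH at 13.40 and 13.33 on chip 1 and 13.21 and 13.51 on chip 2, close on all 4 arrays. REEP5, 8.79-fold lower, PPIA, cyclophilin A, 2.02-fold lower, and TFRC, the transferrin receptor, 2.26-fold higher, lay outside.

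The treated arrays gave a second contrast between the chips. Between cyclopamine and GANT61, 1886 of the 10905 genes (17.3%) were at least 2-fold higher on chip 1 and 2384 (21.9%) lower. Of the 2079 genes higher between the controls, 1524 (73.3%) were also at least 2-fold higher between the treated arrays and 3 were at least 2-fold lower. Of the 2546 lower genes, 1924 (75.6%) were lower there and 1 was higher. When both arrays of chip 1 had to lie at least 2-fold above both arrays of chip 2, 1331 genes (12.2%) met the rule, and 1725 (15.8%) met it in the other direction. Lower by that rule were 20 of the 33 tested adhesion genes and 15 of the 18 members of the epithelial factor list. So were 10 of the 15 members of the intestinal factor list, which holds TFF3, and 14 of the 24 colonocyte genes. In these lists 0, 1, 1 and 1 were higher, in that order. Higher by it were 11 of 19 mesenchymal, 10 of 22 matrix and 8 of 11 cancer testis genes, with 3, 3 and 0 lower. The compounds differ between the treated arrays, so this contrast holds chip, culture and compound together.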

How the data were processed

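Total RNA of 4 cultures was hybridised to 2 BeadChips, 1 array per culture. The deposited tables hold, per the file headers, a summarised bead intensity and a detection p-value for each probe and array. They list 47228 probes for chip 1 and 47229 for chip 2, and the 47227 in common were used. The deposited series table holds log2 intensity, equal to the log2 of the table values within 5e-09. The software behind the intensities is not given in the sources used here.

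Intensities were background corrected and quantile normalised over the 4 arrays by neqc (limma 3.58.1, R 4.3.3), which infers the background from detection p-values, with an offset of 16, which compresses differences of dim probes. Summaries used Python 3.11.15 with pandas 2.3.3. A single gene symbol was annotated for 30111 probes, several for 8, which were left out, and none for 17108, and 30072 symbols were matched to RefSeq through their identifiers. Each gene was represented by its probe with the highest mean over the 4 arrays. The procedure was tested on simulated arrays. Precision is limited by having 1 array in each group, and genes were counted at 2-fold without a test. The alternatives tried were other background corrections, normalisations, detection thresholds and probe rules.

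The 39 gene lists (962 names, 75 without a probe) and the genes taken for comparison were chosen with earlier results of these data known. Named genes were the 6 markers, the members of a list with the largest difference in each direction, those against the direction of their list, and the 15 genes furthest apart in each direction. Other members named beside them were chosen after their values were seen. Promoters matched 643 of 887 list genes. EPCAM, CDH1 and KRT19 were not among them.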

Additional observations from a re-analysis of the deposited data

How the results depend on the processing

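Counts of genes at least 2-fold higher on chip 1 ranged from 1393 (series table) to 2174 (median scaling), against 2079, and all 11 alternatives stayed within 1.5 times of it. Of the lower genes, 2546, there were from 1902 to 3411 except over genes above background on both controls, where 1295 were lower. With neqc within each chip, 1486 genes were higher and 3411 lower, so 30.3% of calls were on the higher side against 45%, and the median of all genes was -0.39 against -0.11. In that setting differences are best read relative to the median. Of 350 list or leading genes at least 2-fold apart, 347 kept 1 sign in all alternatives. A change of the detection filter alone leaves the difference of a gene as it was, so those alternatives could not turn a sign. The sign of CLDN4 (0.13), PROX1 (0.19) and THBS1 (0.011) turned when levels below background were replaced by the lowest detected level. Collagens and matrix proteins had a median of -0.16 with detection on both controls, and keratins had medians up to 0.79. Over all alternatives, list medians moved 52 times and single differences 794 times by more than the spread between probes, and 338 and 5851 times by less. The 5851 include the detection alternatives, in which a single difference cannot move. Several lists came closer to 0 without a detection filter. Medians were then -0.13 for goblet and secretory genes, -0.32 for colonocyte genes, -0.18 for HOX genes and -1.13 for WNT targets. They were 0.70 for the YAP list with its components, -0.13 for genes often lost in tumours, 0.17 for cancer testis genes and 0.085 for placental genes. With levels below background replaced, the HOX median was -0.62 and that of goblet and secretory genes -1.44. With detection on both controls, the mesenchymal median was 1.25 and the HOX median -2.13. Without a filter the lists took in genes below background on both controls, such as 21 of 32 cancer testis and 18 of 32 goblet genes. Under the stricter filter fewer genes were tested. The cause of these moves was not tested. Levels below 5.84 on chip 1 and 5.38 on chip 2 are limited by background. No paired analysis was possible because each group had 1 array and the labels give no replicate numbers.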

Other observations

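Genes often lost in tumours were mostly visible on both controls. Of 15 with a probe, 13 could be tested, 2 at least 2-fold higher on chip 1 and 5 lower, with a median of -0.34. CDKN2A, an inhibitor of cell cycle kinases, was at 10.08 and 9.98 on chip 1 and 7.57 and 8.17 on chip 2, with its 2 probes at 0.36 and 2.51. SMAD4, a mediator of TGF-beta signalling, was at 7.56 and 7.51 on chip 1 and 6.57 and 6.65 on chip 2. STK11, a kinase of energy sensing, was at 4.53 and 6.41 on chip 1 and 7.04 and 6.79 on chip 2, where the chip 1 control was below background and the cyclopamine array was not. APC was below background on both controls. Among 12 tested receptors and ligands of the EGF family and related kinases, 2 (16.7%) were at least 2-fold higher on chip 1 and 3 (25%) lower. Over all genes tested these shares were 19.1% and 23.3%, so the list lay near them. Its median was -0.51, or 0.19 with levels below background replaced. The higher genes were AXL, with a log2 difference of 4.42, and IGF1R, with a difference of 1.27. ERBB3 was 17.7-fold lower on chip 1, the ligand gene TGFA at least 8.1-fold lower and ERBB2 3.79-fold lower, whereas EGFR differed by 0.98.

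Metabolic lists, and the list of S100 proteins and annexins, held genes apart in both directions. Of 26 glycolysis and hypoxia genes tested, 17 differed by less than 2-fold, 8 were higher on chip 1 and 1 was lower, with a median of 0.42. BNIP3, a mitochondrial protein induced by low oxygen, was at 10.75 and 10.68 on chip 1 and 5.33 and 5.00 on chip 2, below background on both arrays of chip 2. SLC2A1, the common glucose transporter, was at 8.70 and 9.83 on chip 1 and 10.69 and 11.86 on chip 2, lower on chip 1, while SLC2A3 of the same family was at least 182-fold higher there. Of 23 sterol and fatty acid synthesis genes, 9 were at least 2-fold higher on chip 1 and 4 lower, with a median of 0.64. MSMO1, a sterol oxidase, was 5.5-fold higher, with 3 probes from 0.24 to 2.46, and TM7SF2, a sterol reductase, was 8.08-fold lower. Of 17 S100 and annexin genes tested, 10 (58.8%) differed by less than 2-fold, close to the 57.6% over all genes tested. ANXA4 and ANXA13, annexins of epithelium, were at least 5.52-fold lower and at least 2.4-fold lower on chip 1, with another ANXA13 probe at -0.74.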
